A study of Homo sapiens with 24 samples.

Results

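RNA levels at 4 h were compared with those at 2 h after the last dose of IK-595, in human pancreatic tumors carried by mice. The members of the comparison are 8 of the 24 tumors of the series, 4 at each time, taken by the time given in the sample titles. All 8 tumors were grown from AsPC-1, an established human line of pancreatic ductal adenocarcinoma, and every mouse had received 3 oral doses of IK-595 at 6 mg/kg, given every other day. Vehicle mice received 5% DMSO in 95% PEG 400 and their 4 tumors were taken at 2 h only. No vehicle tumor was therefore paired with the 4 h tumors, and time since the drug dose cannot be told apart from time since dosing by mouth, from the hour of the day or from the order of collection. Each tumor came from its own animal and all came from 1 cell line, so the spread between tumors is that between animals of 1 model. The submitters' design text gives the course of expression after the last dose as the question of the series.

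The labels describe IK-595 as a molecular glue that joins MEK and RAF. RAF phosphorylates MEK and MEK phosphorylates ERK, and active ERK induces transcription factors of the AP-1, ETS and EGR families as well as inhibitors that feed back on the same pathway, such as the DUSP phosphatases and the Sprouty and SPRED proteins. This cascade is a main route of growth signaling in pancreatic ductal adenocarcinoma. Transcripts of such feedback inhibitors are short-lived, and their levels are commonly used as a readout of pathway activity.

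Sequencing depth in M estimated counts (M, 10 to the power of 6) was 15.44 to 18.66 in the tumors at 2 h. At 4 h it was 18.47, 10.52, 20.6 and 17.36 M. The 4 h tumor with the lowest depth, tumor 2, also stood apart in its profile. The Spearman correlation of log2 CPM across genes between tumors of the 4 h group ran from 0.924 to 0.983, and from 0.973 to 0.983 without tumor 2, against 0.958 to 0.987 at 2 h. At 2 h tumor 1 had the lowest correlations, 0.958 to 0.961 with the other 3. CPM is the count per M counts of the scaled library. The 15 tested fibroblast and pericyte markers averaged 7.8 log2 CPM in 4 h tumor 2. They averaged 3.93 to 5.35 in the other 4 h tumors and 3.71 to 5.79 at 2 h. The 12 markers of pancreatic ductal epithelium averaged 8.44 to 8.71 log2 CPM at 2 h and 8.53 to 8.65 at 4 h. None of the 11 acinar and islet markers and none of the 10 lymphocyte markers passed the low-count filter. Fewer cells of a type and less RNA per cell cannot be told apart in bulk tumors.

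Of 18242 genes tested, 1257 (6.89%) were higher and 1642 (9%) were lower at 4 h, at an edgeR adjusted p under 0.05. The difference exceeded 2-fold for 305 of the higher and 454 of the lower genes. Of all calls, 43.4% were higher, and 71.5% with limma on log2(TPM + 1), a scaling that moved the median of all genes by 0.16 on the log2 scale. The median log2 fold change over all genes was -0.003 in the edgeR fit. Individual tumors weighed heavily on these counts. Without 2 h tumor 1 there were 2265 higher and 1975 lower genes. There were 842 higher (4.51%) and 950 lower (5.09%) genes without 4 h tumor 2, and 332 (1.78%) and 671 (3.6%) without 2 h tumor 4. With both of these tumors left out, 232 (1.25%) and 421 (2.27%) genes were called. This pair was a planned check and is called the tumors in doubt below. The name is no finding on 2 h tumor 4, which correlated at 0.958 to 0.984 with its group. The 2 h tumor with the lowest correlations, tumor 1, was not left out together with 4 h tumor 2. In every one of the 8 fits that left out 1 of the tumors, 286 genes remained higher and 523 remained lower. Counts in gene lists below are to be read beside the shares of all genes given here. A gene is said below to rise or fall where it passed the test with all tumors, values after ± are standard errors for log2 fold changes and SD for levels (n = 4 tumors a group), and any loss of the call on leaving out a tumor is stated.

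Base composition moved with the comparison. Tested genes were ordered by transcript GC and cut into 5 groups of equal size. In the most GC-rich group (58.15 to 75.81% GC), 741 were lower and 30 higher at 4 h, with a median log2 fold change of -0.29. In the group with the lowest GC (26.79 to 41.22%), 97 were lower and 502 higher, with a median of 0.21. Deviations were taken from each gene's mean over the vehicle, 2 h and 4 h tumors. In the GC-rich group the median deviation was 0.29, 0.30 and 0.23 log2 CPM in 2 h tumors 2, 3 and 4. In 2 h tumor 1 it was -0.01. The 4 h tumors stood at -0.01, -0.24, -0.13 and -0.09, and the vehicle tumors at -0.13, -0.06, -0.13 and -0.01. When the GC trend of each tumor was removed, 966 genes (5.3%) were higher and 1033 (5.66%) lower, of which 766 and 866 were among the calls above, and the GC-rich group held 148 higher and 208 lower genes. Counts with the trend removed are given below for the main gene groups whose counts it changed, and its part in single calls was not tested further.

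**Figure D1:**
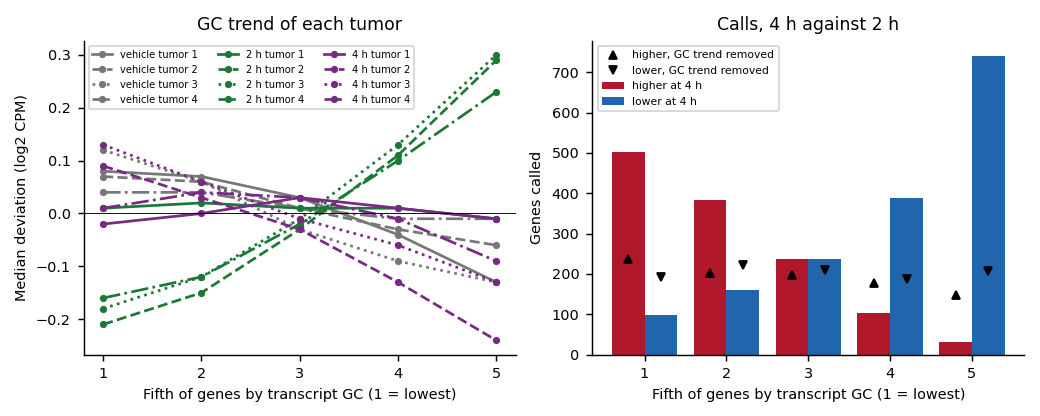
Left, median deviation of genes (log2 CPM) in 5 equal groups of genes ordered by transcript GC, 1 line per tumor. Deviations are from each gene's mean over the tumors drawn, those of the vehicle, 2 h and 4 h groups. Right, genes called higher (red) or lower (blue) at 4 h in each group, with triangles for the counts after removal of each tumor's GC trend. The lines of 2 h tumors 2, 3 and 4 rise to between 0.23 and 0.30 in the GC-rich group, and the 741 lower calls there become 208 with the trend removed.

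Several transcripts driven by ERK were far below vehicle at 2 h and lower still at 4 h. SPRY4, DUSP6, DUSP4, SPRED2, EPHA2 and ETV5 were each lower in all 4 tumors at 4 h than in any tumor at 2 h, by 3.48-fold to 7.2-fold. Over all tested genes the 4 tumors of each time did not overlap for 8.84% in the higher and 10.2% in the lower direction. The mean log2 CPM of 10 genes of MAPK output (ETV4, ETV5, SPRY2, SPRY4, EPHA2, EPHA4, CCND1, PHLDA1, DUSP4 and DUSP6) was 3.99, 4.05, 3.98 and 4.4 in the 2 h tumors and 2.82, 3.57, 2.63 and 2.8 in the 4 h tumors, a difference of -1.15. The groups did not overlap, and 4 h tumor 2 lay nearest to the 2 h range. In vehicle tumors the same mean was 6.48 to 6.56. Vehicle levels are given beside the other groups throughout as a description, since both times share the same 4 vehicle tumors. Of the 10 genes 7 fell and 1 rose, with a median log2 fold change of -1.57, and 6 fell and none rose both with the GC trend removed and with both tumors in doubt left out. With limma on log2(TPM + 1) 5 fell and the median was -0.63. These counts include no test of the list, whose genes had been seen in these data before.

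Sprouty, SPRED and DUSP proteins restrain the ERK cascade after it has been switched on. SPRY4 (ENSG00000187678.10, chromosome 5 from 142310427 to 142326455) stood at 9.31, 11.7, 8.62 and 14.7 CPM at 2 h and at 1.65, 2.39, 1.07 and 1.29 CPM at 4 h, where vehicle tumors held 159 ± 9.54 CPM. It fell by 2.85 ± 0.36 on the log2 scale between the times (adjusted p = 0.000114), the largest fall in the list. DUSP6 (ENSG00000139318.8, chromosome 12 from 89347232 to 89353271), the phosphatase of ERK in the cytoplasm, went from 16.1, 22.4, 14.3 and 25.9 CPM to 3.24, 9.76, 3.43 and 2.84 CPM, a log2 change of -2.09 ± 0.34 (adjusted p = 0.000848). Its level in 4 h tumor 2 was the highest of the 4 h group, and without that tumor the change was -2.60. DUSP4, a nuclear phosphatase of ERK, changed by -1.97 ± 0.33 with the same tumor again highest (8.04 CPM against 3.11 to 3.6 CPM in the other 4 h tumors).

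SPRED2 (ENSG00000198369.10, chromosome 2 from 65310851 to 65432637), which blocks activation of RAF by RAS, was the tightest of these readouts. It stood at 30.1, 30.9, 29.8 and 30.9 CPM at 2 h and at 7.76, 9.19, 10.1 and 7.89 CPM at 4 h, a change of -1.80 ± 0.21 (adjusted p = 4.96e-05). ERRFI1, an inhibitor of the EGF receptor kinase, went from 88.7 to 263 CPM at 2 h to 28.7 to 61.6 CPM at 4 h (-1.91 ± 0.33). Of the 19 tested feedback genes 5 fell and 1 rose, and the 5 that fell did so in every fit that left out 1 tumor and with the GC trend removed. The rest did not move together: the median log2 fold change of the list was -0.07, and 0.04 on the log2(TPM + 1) scale. SPRY2 was at 13.5 ± 3.64 CPM at 2 h and 13.6 ± 5.14 CPM at 4 h, DUSP1 at 26 ± 3.43 and 28.3 ± 7.75 CPM, and neither passed the test. DUSP7 was at 37.2 ± 4.07 and 24.1 ± 10.7 CPM (adjusted p = 0.0622), and at an adjusted p of 0.00785 without 4 h tumor 2.

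**Figure D2:**
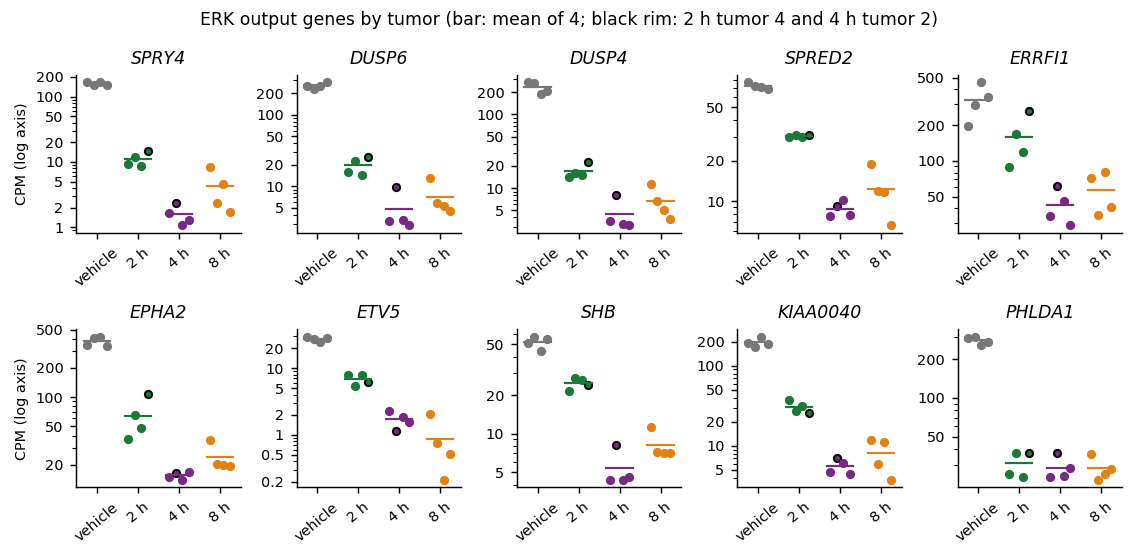
Level (CPM, log axis) of 10 genes in each vehicle, 2 h, 4 h and 8 h tumor, with a bar at the mean of 4 and a black rim on 2 h tumor 4 and 4 h tumor 2. In 9 of the 10 genes the 4 h points lie below all 2 h points, as for SPRED2 (29.8 to 30.9 CPM at 2 h, 7.76 to 10.1 CPM at 4 h), while PHLDA1 is level between the times.

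ETS factors of the PEA3 group, ETV1, ETV4 and ETV5, are induced by ERK signaling. ETV5 fell from 5.36 to 8.01 CPM at 2 h to 1.15 to 2.26 CPM at 4 h (-1.99 ± 0.32, adjusted p = 0.000765). ETV4 had not left the vehicle range of 36.1 to 51.8 CPM by much at 2 h, at 30.8, 38.7, 39.8 and 41.6 CPM, and was at 17.2, 15.4, 15.8 and 18.2 CPM at 4 h (-1.18 ± 0.18). ETV1 went from 21.1 ± 6.29 to 8.76 ± 1.18 CPM. Of 18 tested ETS factors 5 fell and 2 rose, and without both tumors in doubt 4 fell and none rose.

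Receptors and adaptors upstream of RAS gave single genes and not a shift of the family. EPHA2 (ENSG00000142627.13, chromosome 1 from 16124337 to 16156087), an ephrin receptor kinase, stood at 36.6, 65.1, 47.9 and 107 CPM at 2 h and at 14.9, 16.5, 13.8 and 17 CPM at 4 h (-2.05 ± 0.27, adjusted p = 0.000155). IRS2, the adaptor of the insulin and IGF1 receptors, was at 74 ± 16.7 CPM at 2 h, within the vehicle range of 48.5 to 95.6 CPM, and at 26 ± 12 CPM at 4 h (-1.50 ± 0.27). The SH2 adaptor gene SHB (ENSG00000107338.10, chromosome 9 from 37919134 to 38069211) had the smallest adjusted p of the genes named here, 6.45e-07. It stood at 21.6, 27.1, 26.2 and 23.9 CPM at 2 h and at 4.32, 8.13, 4.35 and 4.56 CPM at 4 h (-2.23 ± 0.19). EGFR itself did not pass (352 ± 41 and 274 ± 78.9 CPM). Of 25 other receptor kinases and IRS adaptors 3 fell and 3 rose, and of 25 RAS, RAF, MEK and ERK components 5 fell and 2 rose. With the GC trend removed these were 2 and 2, and 2 and 3. Over all genes 9% were lower and 6.89% higher, or 5.66% and 5.3% with the trend removed. KSR1, the scaffold of that cascade, was the only one of those components to fall in every fit that left out 1 tumor (38.1 ± 2.92 to 25.3 ± 3.68 CPM). Some rises in these lists came from a single tumor: EPHA4 was at 0.564 to 1.37 CPM at 2 h and at 1.23, 15.5, 0.834 and 1.77 CPM at 4 h, and its log2 fold change of 2.31 ± 0.75 was 0.45 without 4 h tumor 2 (adjusted p = 0.65). Its call was also lost without 2 h tumor 2, 3 or 4.

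Some ERK-linked transcripts were low at 2 h and stayed there. PHLDA1, whose vehicle level was 281 ± 20.3 CPM, stood at 25.7, 37.2, 24.3 and 37 CPM at 2 h and at 24.1, 37, 24.9 and 28.4 CPM at 4 h, a change of -0.12 ± 0.22. MYC, named although the naming rule does not reach it and after its values were seen, was at 7.52 ± 0.966 CPM at 2 h and 7.55 ± 1.67 CPM at 4 h, against 73.7 ± 8.7 CPM in vehicle tumors. CCND1, the cyclin D1 gene, went from 104 ± 21.6 to 62.7 ± 11.1 CPM (-0.73 ± 0.23), but its call was lost in 6 of the 8 fits that left out a tumor, all but those without 2 h tumor 1 or 4 h tumor 1. Of the 12 tested partners and competitors of MYC and MLX, 2 fell and none rose (1 and none with the GC trend removed), and MNT, a repressor that pairs with MAX, went from 41 ± 6.44 to 23.7 ± 1.78 CPM.

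The AP-1 list, which here takes in the small MAF proteins, had a median log2 fold change of -0.69, which was -0.22 with the GC trend removed. Of its 12 tested genes 6 fell and none rose, and 7 fell without 4 h tumor 2, but 4 with the GC trend removed. FOSL1, a FOS-family gene that depends on ERK, was at 3.23, 8.91, 7.03 and 10.7 CPM at 2 h and at 1.49, 2.01, 1.39 and 1.56 CPM at 4 h (-2.23 ± 0.49). The small MAF genes are partners of NRF2 and of each other. MAFF stood at 30.9, 50.7, 46.4 and 75 CPM at 2 h, with a vehicle range of 44.8 to 113 CPM, and at 14.1, 16.3, 19.7 and 13.9 CPM at 4 h (-1.67 ± 0.27). MAFK went from 302 ± 83.1 to 112 ± 37.3 CPM, and with the GC trend removed its log2 change of -1.43 was -1.07. JUN and FOSL2, the most abundant members that did not pass, were level, at 90.1 ± 18.3 and 91.1 ± 29.9 CPM for JUN and at 226 ± 46.5 and 207 ± 35.5 CPM for FOSL2.

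Among 31 tested early genes of the EGR, NR4A, IER and KLF families 7 fell and none rose, with a median of -0.23 (0.02 on the log2(TPM + 1) scale), and 3 fell with the GC trend removed or without both tumors in doubt. IER3 (65.5 ± 24.9 to 24.4 ± 3.73 CPM) and IER5 (24 ± 2.68 to 13.6 ± 2.81 CPM), both induced by growth factors, fell in every fit that left out 1 tumor. KLF6, at 263 ± 43.8 and 212 ± 13 CPM, did not pass.

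Secreted factors moved both ways. The interleukin genes IL1A and IL1B were low at both times and fell further, IL1A from 2.42 to 3.94 CPM at 2 h to 0.805 to 1.63 CPM at 4 h (-1.52 ± 0.35), and IL1B from 2.42 to 5.97 CPM to 0.268 to 1.44 CPM (-2.21 ± 0.49). IL18, at 112 ± 6.9 CPM at 2 h and 120 ± 15.8 CPM in vehicle tumors, was at 66.6 ± 13.9 CPM at 4 h. The neutrophil chemokine gene CXCL5 went the other way, from 183, 128, 127 and 100 CPM to 254, 391, 309 and 480 CPM (1.41 ± 0.34, adjusted p = 0.0112). Its adjusted p was 0.0501 without 2 h tumor 4. Of the 21 tested cytokines and chemokines 6 fell and 3 rose, without 2 h tumor 4 these were 3 and none, and with the GC trend removed 3 and 3. NFKB2, a subunit gene of NF-kappaB that is also its target, fell from 114 ± 20.6 to 64 ± 5.5 CPM, as 1 of 4 genes that fell among 16 of the NF-kappaB response. With the GC trend removed 2 of the 16 fell, and without both tumors in doubt 1 did.

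Outside the lists, the largest falls by the naming rule included genes with other roles. KIAA0040 (ENSG00000235750.10, chromosome 1 from 175156987 to 175192999) was at 197 ± 25.1 CPM in vehicle tumors, at 37.9, 27.1, 31.3 and 26 CPM at 2 h and at 4.78, 6.99, 6.02 and 4.45 CPM at 4 h (-2.47 ± 0.30, adjusted p = 0.000108). RAPGEF3 (ENSG00000079337.16, chromosome 12 from 47734367 to 47771040) encodes EPAC1, the exchange factor that couples cyclic AMP to RAP. It had not moved at 2 h, at 77, 78.2, 90.2 and 69.5 CPM with a vehicle range of 70.6 to 108 CPM, and stood at 22.7, 23.8, 30.1 and 16.1 CPM at 4 h (-1.76 ± 0.20, adjusted p = 4.83e-05). The adhesion gene CEACAM1 followed the same course, from 284 ± 63.2 CPM at 2 h, inside the vehicle range of 238 to 349 CPM, to 85.7 ± 29.6 CPM at 4 h. The hedgehog ligand gene SHH fell from 33 ± 9.65 to 9.4 ± 1.94 CPM, and TNS4, a tensin of focal adhesions, from 30 ± 9.07 to 7.67 ± 2.37 CPM. ANGPTL4, an inhibitor of lipoprotein lipase, was at 40.8 to 125 CPM at 2 h, above the vehicle mean of 39.8 ± 14.8 CPM, and at 10.1 to 29.2 CPM at 4 h. ARID3A, a DNA-binding protein gene, went from 38 ± 14.2 to 12.1 ± 5.2 CPM. With both tumors in doubt left out CEACAM1 and ARID3A no longer passed (adjusted p = 0.0581 and 0.088).

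A second block of falls lay in stress and glucose genes, most of which had been close to their vehicle level at 2 h. ATF4 is the transcription factor of the integrated stress response, which is switched on by amino acid shortage and unfolded protein. Of 25 tested genes of this response 10 fell and 1 rose, with a median of -0.18 (-0.04 on the log2(TPM + 1) scale), and 7 fell with the GC trend removed and 5 without both tumors in doubt. TRIB3 (chromosome 20 from 362835 to 397559), a pseudokinase induced by ATF4, stood at 13.2, 33, 23.7 and 28.8 CPM at 2 h and at 7.35, 5.74, 9.17 and 4.18 CPM at 4 h (-1.89 ± 0.29, adjusted p = 0.000516). DDIT3, which encodes CHOP, was at 58.5 ± 20 CPM at 2 h, in the vehicle range of 33.6 to 70.9 CPM, and at 23.9 ± 6.27 CPM at 4 h. The cystine transporter gene SLC7A11 was already low at 2 h (27.1 ± 6.81 CPM against 84 ± 16 in vehicle tumors) and fell to 10.2 ± 1.69 CPM. DDIT4, an inhibitor of mTORC1, went from 346 ± 83.3 to 172 ± 37.8 CPM. XBP1 and the ER chaperone gene HSPA5 did not pass, with HSPA5 at 636 ± 49.2 and 637 ± 266 CPM.

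Of 27 tested genes of glycolysis and hypoxia 14 fell and none rose, and their median log2 fold change was -0.75. The list mean was 7.97 log2 CPM in 2 h tumor 4, 7.31 to 7.48 in the other 2 h tumors and 6.36 to 7.06 in the 4 h tumors. Without 2 h tumor 4 the count was 4 genes and the median -0.61, without 4 h tumor 2 the count was 6, without both 3, and with the GC trend removed 9. The median was -0.65 without both tumors. With limma on log2(TPM + 1) 6 genes fell and the median was -0.49. SLC2A1 (chromosome 1 from 42925375 to 42959176), the glucose transporter GLUT1, stood at 678, 805, 796 and 1200 CPM at 2 h and at 239, 369, 458 and 187 CPM at 4 h (-1.47 ± 0.31, adjusted p = 0.00437). Its vehicle range was 682 to 1310 CPM, so the 2 h tumors were level with vehicle and the 4 h tumors below both. The lactate exporter gene SLC16A3 went from 187 ± 33.6 to 94.6 ± 20.6 CPM. GPI, the isomerase of the second step of glycolysis, went from 331 ± 105 to 185 ± 27.4 CPM and lost its call without 2 h tumor 4 (adjusted p = 0.0563). The abundant enzymes LDHA (3140 ± 95.1 and 2590 ± 534 CPM) and PKM (1480 ± 147 and 1560 ± 141 CPM) did not pass.

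ANKRD37 (ENSG00000186352.9, chromosome 4 from 185396021 to 185400628), a target of the hypoxia-inducible factor, was at 6.64, 15.6, 12.6 and 26.3 CPM at 2 h and at 2.88, 2.2, 4.96 and 1.07 CPM at 4 h, the largest fall that held in this list (-2.45 ± 0.49, adjusted p = 0.00355). The letters TACGTG, 1 form of the sequence that this factor reads, were sought in RefSeq GRCh38.p14. Both strands of the 300 bases around each start site (250 before, 50 after) were searched. Other forms were not counted, so a promoter without these letters may still hold a site. ANKRD37 was the only 1 of the 12 fallen genes of the list with a promoter in that table to hold them (8.33%). Of the 25 promoters of all tested genes of the list 3 held them (12%). The share was 3.33% of all 27305 promoters and 3.36% of those of tested genes. The 250 bases before its start site are shown, 5′ to 3′ on the coding strand, with the match in capitals (chr4:185396591-185396840, plus strand).
ANKRD37: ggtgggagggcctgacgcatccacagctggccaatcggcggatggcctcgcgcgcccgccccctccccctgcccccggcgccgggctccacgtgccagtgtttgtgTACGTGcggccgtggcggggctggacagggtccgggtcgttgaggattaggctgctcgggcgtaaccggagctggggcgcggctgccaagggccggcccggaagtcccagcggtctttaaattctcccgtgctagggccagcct
The match begins 144 bases before the start site. It is a match of letters in a promoter and does not show that a factor was bound.

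Most clock transcripts were not called. Of 19 tested, 3 fell, 1 (NR1D2) rose and 15 did not pass, with a median log2 fold change of -0.09. Over all genes tested 9% were lower and 6.89% higher. NPAS2 (ENSG00000170485.17, chromosome 2 from 100820152 to 100996829), a partner of BMAL1 in the clock activator, stood at 68.5, 94.4, 96 and 89.6 CPM at 2 h and at 34.3, 30, 37.4 and 34.9 CPM at 4 h (-1.35 ± 0.15, adjusted p = 4.83e-05). NR1D1, the repressor REV-ERB alpha, was at 57.1 ± 4.73 CPM at 2 h, above the vehicle range of 22.7 to 29 CPM, and back at 24.8 ± 6.58 CPM at 4 h (-1.21 ± 0.24). BHLHE40, another clock repressor that also answers to hypoxia, went from 299 ± 73.8 to 146 ± 27.6 CPM. These 3 fell in every fit that left out 1 tumor. The rise of NR1D2 did not hold in every such fit: its call was lost without 2 h tumor 4, and also with the GC trend removed. For these genes too, time after the drug and hour of day cannot be told apart. The glucocorticoid target gene FKBP5 rose from 66, 51.9, 54.1 and 48.7 CPM to 97.9, 107, 139 and 144 CPM (1.15 ± 0.19, adjusted p = 0.000915), with vehicle tumors at 92 ± 20.6 CPM.

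**Figure D3:**
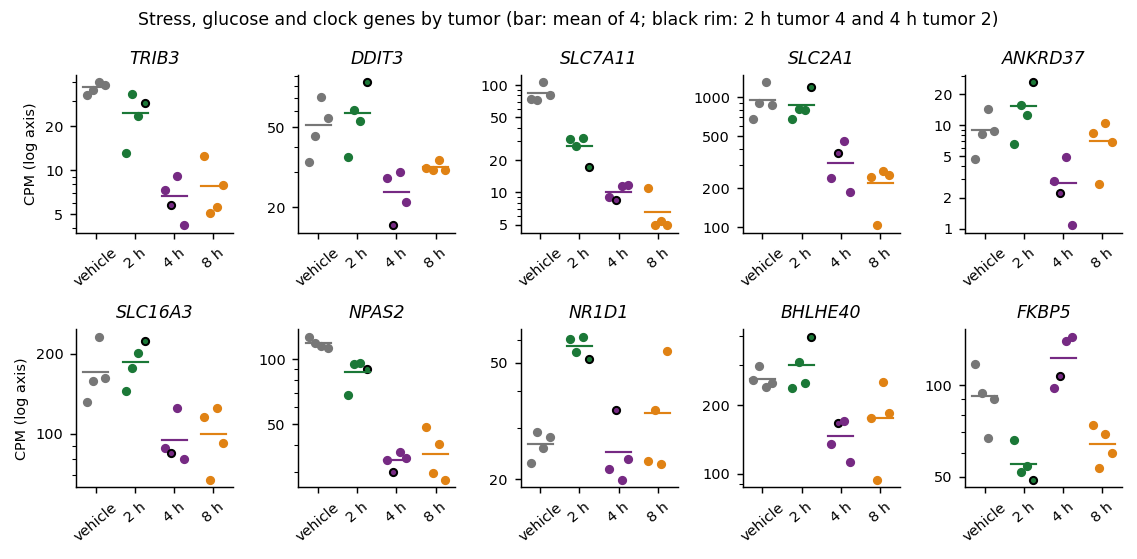
Level (CPM, log axis) of 10 stress, glucose, clock and glucocorticoid-response genes in each vehicle, 2 h, 4 h and 8 h tumor, with a bar at the mean of 4 and a black rim on 2 h tumor 4 and 4 h tumor 2. SLC2A1 and DDIT3 at 2 h lie among the vehicle points and fall below at 4 h, NR1D1 is high only at 2 h among the first 3 groups, and FKBP5 runs the other way.

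The rises at 4 h were led by genes of DNA replication and mitosis. Of 30 tested genes of G1/S and DNA replication 20 rose and none fell, with a median log2 fold change of 1.05 and all 30 above 0. Of 28 of G2/M and mitosis 15 rose and none fell, with a median of 1.07. The mean of the first list was 3.97, 4.13, 3.61 and 3.29 log2 CPM at 2 h and 4.81, 4.76, 4.52 and 5.09 at 4 h, against 4.36 to 5.28 in vehicle tumors. The second list averaged 4.1, 4.33, 3.61 and 3.47 at 2 h and 4.88, 4.6, 4.74 and 5.2 at 4 h, against 4.94 to 5.89 in vehicle tumors. In both lists the 4 h tumors lay above all 2 h tumors, and 2 h tumor 4 was the lowest of the 8. Without 2 h tumor 4 the G1/S count was 4 (median 0.87) and the G2/M count 2 (median 0.96). Without 4 h tumor 2 they were 17 and 11, without both 1 and 2, and with the GC trend removed 19 and 8. The loss of calls was not particular to these lists. Over all genes 6.89% were higher with all tumors and 1.78% without 2 h tumor 4. Without 2 h tumor 2 or 3, 510 and 505 of all genes were higher.

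The genes of these lists that rose in every fit that left out 1 tumor were few but spanned the process. MCM2 (chromosome 3 from 127598223 to 127622436), a subunit of the replicative helicase, stood at 13.4, 16.6, 12.4 and 10.9 CPM at 2 h and at 32.3, 35.9, 23 and 40.8 CPM at 4 h (1.31 ± 0.32, adjusted p = 0.0106). POLA1 (ENSG00000101868.13, chromosome X from 24693919 to 24996986), the catalytic subunit of the polymerase that primes DNA synthesis, went from 9.68, 8.29, 5.87 and 4.84 CPM to 13.4, 22.8, 14.5 and 17 CPM (1.23 ± 0.25, adjusted p = 0.00361). RRM1, the large subunit of ribonucleotide reductase, went from 40.3 ± 10.4 to 94 ± 26.9 CPM, and RFC4, part of the clamp loader, from 10.7 ± 1.09 to 18.1 ± 2.1 CPM. In the G2/M list these were BUB1, a kinase of the spindle checkpoint (12.4 ± 4.81 to 33.3 ± 4.33 CPM), and KIF11, the kinesin that separates spindle poles (18.4 ± 5.04 to 47.3 ± 7.73 CPM). TPX2, the most abundant of the G2/M genes named by rule that did not pass, was at 36 ± 11.4 and 74 ± 18.4 CPM (adjusted p = 0.0553). With both tumors in doubt left out MCM2, POLA1 and RRM1 were at log2 changes of 1.18, 0.91 and 0.93 with adjusted p of 0.0841, 0.0539 and 0.0602.

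Of 22 tested G1 cyclins, pocket proteins and CDK inhibitors 6 rose and 2 fell, or 6 and none with the GC trend removed. RBL1 (ENSG00000080839.12, chromosome 20 from 36996349 to 37095995), the pocket protein p107, rose from 10.7, 9.47, 6.36 and 8.56 CPM to 22, 23.4, 17.5 and 22.4 CPM (1.28 ± 0.23, adjusted p = 0.00161). CCNE2, cyclin E2, which drives entry into S phase, rose from 4.64 ± 1.17 to 11.6 ± 1.33 CPM. Both calls held in every fit, including that without both tumors in doubt (adjusted p = 0.0181 and 0.0112).

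E2F factors drive most genes of DNA replication, and the letters TTTNNCGC were sought on either strand of the same 300 base windows. Of the 20 G1/S genes that rose 17 had a promoter in the table and 12 of these (70.6%) held the letters, as did 17 of the 26 promoters (65.4%) of all tested genes of the list. Over all promoters the share was 6.9%, over promoters of tested genes 9.86%, over those of the genes higher at 4 h 13.9% and over those of the genes lower at 4 h 8.37%. POLA1 and RBL1 are shown as members that rose and hold matches, with the 250 bases before the start site, 5′ to 3′ on the coding strand and the matches in capitals. POLA1 lies at chrX:24693668-24693917 on the plus strand and RBL1 at chr20:37095998-37096247 on the minus strand.
POLA1: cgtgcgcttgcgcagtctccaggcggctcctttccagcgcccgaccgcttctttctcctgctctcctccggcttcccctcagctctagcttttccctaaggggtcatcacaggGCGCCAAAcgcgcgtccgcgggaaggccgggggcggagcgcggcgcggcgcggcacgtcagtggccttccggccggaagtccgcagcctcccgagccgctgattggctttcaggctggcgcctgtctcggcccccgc
RBL1: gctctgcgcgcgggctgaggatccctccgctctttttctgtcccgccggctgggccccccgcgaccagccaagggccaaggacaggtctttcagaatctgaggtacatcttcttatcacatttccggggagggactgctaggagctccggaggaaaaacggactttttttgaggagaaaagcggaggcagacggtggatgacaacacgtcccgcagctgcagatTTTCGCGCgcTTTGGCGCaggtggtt
POLA1 holds 1 match, on the other strand, beginning 137 bases before the start site. RBL1 holds 2 in tandem, beginning 26 and 16 bases before it. A match shows the letters only, and E2F levels on DNA were not measured.

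**Figure D4:**
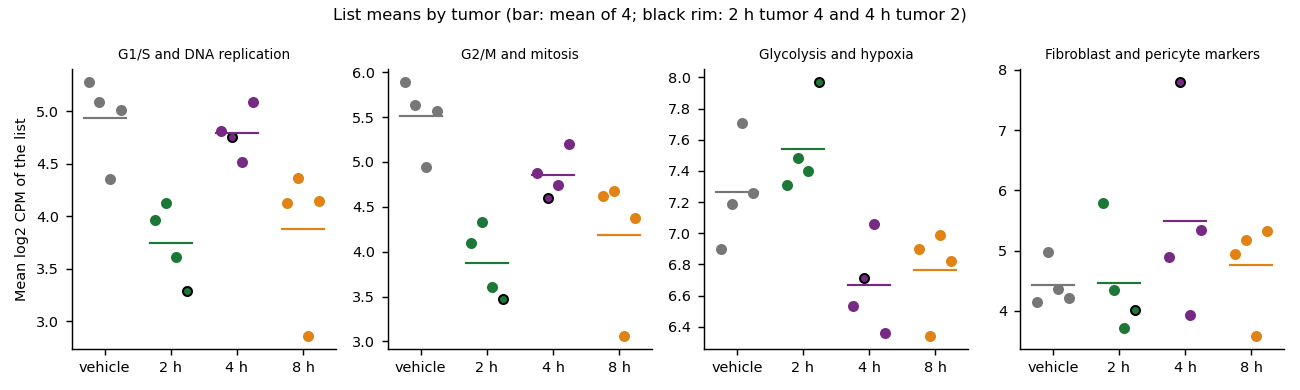
Mean log2 CPM of the tested genes of 4 lists in each vehicle, 2 h, 4 h and 8 h tumor, with a bar at the mean of 4 and a black rim on 2 h tumor 4 and 4 h tumor 2. The replication and mitosis lists are lowest at 2 h among the first 3 groups (3.29 to 4.13 and 3.47 to 4.33), the glycolysis list is highest there, and the fibroblast list stands at 7.8 in 4 h tumor 2. At 8 h the replication list ran from 2.86 to 4.37, below every 4 h tumor, and the mitosis list from 3.06 to 4.68.

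The largest rises by the naming rule included both replication genes outside the lists and genes with other roles. KLHL4 (ENSG00000102271.14, chromosome X from 87517749 to 87670050), of the Kelch-like family, was at 8.07, 6.43, 8.68 and 3.38 CPM at 2 h and at 26.9, 26.4, 31.3 and 37.5 CPM at 4 h (2.20 ± 0.47, adjusted p = 0.00533). Its vehicle range was 18.7 to 26.7 CPM, so that the 4 h tumors were level with vehicle or above it. FAM111B, of a family of proteases, went from 6.6 ± 2.47 to 24.3 ± 1.68 CPM, and the replication factor WDHD1 from 5.24 ± 1.84 to 15.4 ± 2.26 CPM. BRIP1 (ENSG00000136492.10, chromosome 17 from 61681266 to 61863521), the DNA helicase that binds BRCA1, stood at 5.65, 7.61, 4.65 and 3.6 CPM at 2 h and at 17.5, 12.7, 18 and 18.5 CPM at 4 h (1.64 ± 0.24, adjusted p = 0.000354). BRCA1, of DNA repair, rose from 12 ± 3.49 to 31.2 ± 7.51 CPM, and ATAD2, a bromodomain ATPase, from 32.2 ± 8.55 to 89 ± 11 CPM. Genes of adhesion and scaffolds rose too: FLRT3 from 9.49 ± 2.56 to 24.4 ± 1.83 CPM, AMOTL1 from 5.65 ± 2.96 to 15 ± 3.49 CPM, FAM83B from 12 ± 1.49 to 33.1 ± 6.05 CPM and TANC2 from 9.7 ± 4.36 to 26.4 ± 7.38 CPM. The cell adhesion gene NCAM1 had the largest fold change, from 8.5, 5.52, 3.61 and 1.86 CPM to 13.3, 60.7, 12.2 and 20.9 CPM (2.45 ± 0.51). Its level in 4 h tumor 2 was the highest, and without that tumor the log2 change was 1.69. SLC17A4, a transporter of gut epithelium, was at 1.89 ± 0.692 CPM in vehicle tumors, 5.09 ± 1.49 CPM at 2 h and 14.4 ± 5.34 CPM at 4 h, and KRT80 rose from 45.9 ± 11.3 to 107 ± 26.3 CPM. It was the only edgeR call among 12 tested keratins, of which DESeq2, limma-voom and edgeR with the GC trend removed each called 2 higher, and with both tumors in doubt left out it did not pass (adjusted p = 0.067).

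Among chaperones HSPA8 (ENSG00000109971.14, chromosome 11 from 123057489 to 123063230), the constitutive HSP70, stood at 778, 362, 344 and 354 CPM at 2 h and at 760, 1990, 911 and 1140 CPM at 4 h, with vehicle tumors at 1280 ± 148 CPM. The groups overlapped through 2 h tumor 1. The change of 1.39 ± 0.36 (adjusted p = 0.015) lost its call in 4 of the 8 fits that left out a tumor, those without 2 h tumor 2, 3 or 4 or 4 h tumor 2. HSF1, the heat shock factor, fell from 124 ± 22.7 to 67 ± 3.6 CPM (-0.88 ± 0.12, adjusted p = 0.000184), and by 0.48 with the GC trend removed. Of 20 tested genes 3 rose and 1 fell, with the GC trend removed 2 rose and 1 fell, and without both tumors in doubt 1 rose and 1 fell. The letters of the heat shock element (alternating GAA and TTC units) occur in 3 of the 19 promoters of this list and in 0.487% of all promoters. Of the 3 genes of the list that rose, 1 (HSPA8) holds them. The share was 0.338% for tested genes, 0.292% for genes higher at 4 h and 0.445% for genes lower at 4 h. HSPA8 holds the letters at 230 and 55 bases before its start site, shown in capitals (chr11:123062137-123062386, minus strand).
HSPA8: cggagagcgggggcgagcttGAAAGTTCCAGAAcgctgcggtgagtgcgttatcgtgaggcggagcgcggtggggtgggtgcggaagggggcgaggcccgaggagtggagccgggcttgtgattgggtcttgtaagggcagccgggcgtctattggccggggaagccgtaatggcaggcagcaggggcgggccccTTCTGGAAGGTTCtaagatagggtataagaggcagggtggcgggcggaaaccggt
The second match lies on the other strand.

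Of 24 tested genes of cholesterol synthesis 7 rose and none fell, with a median log2 fold change of 0.54. Only SC5D, the sterol desaturase (37.9 ± 8.74 to 71.1 ± 8.42 CPM), rose in every fit that left out 1 tumor. HMGCS1 (87.4 ± 10.4 and 135 ± 22.4 CPM) did not pass. Without 2 h tumor 4 only 1 gene of the list rose, and without both tumors in doubt none did at an adjusted p under 0.05. Of 29 tested interferon-stimulated and MHC class I genes 3 rose and 3 fell, or 3 and 1 with the GC trend removed. Over all genes 6.89% were higher and 9% lower, or 5.3% and 5.66% with the trend removed.

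Of 14 tested regulators of apoptosis in the BCL2 family 3 fell and none rose, and 2 fell with the GC trend removed. Over all genes 9% were lower and 6.89% higher, or 5.66% and 5.3% with the trend removed. BCL2L1, which encodes the survival protein BCL-XL, stood at 105, 106, 115 and 111 CPM at 2 h and at 53.5, 63.8, 62.1 and 61.1 CPM at 4 h (-0.86 ± 0.17, adjusted p = 0.00269). Its vehicle range was 253 to 281 CPM. BIK, a pro-apoptotic member, was above its vehicle range of 12.2 to 17.1 CPM in 3 of the 4 tumors at 2 h (14.6, 25.8, 27.1 and 30.4 CPM) and at 9.86 to 14.3 CPM at 4 h. MCL1, a short-lived survival gene, did not pass (198 ± 34.7 and 223 ± 39.6 CPM). Of 24 chromatin, RNA decay and elongation genes 2 rose and 2 fell (2 and 1 with the GC trend removed), with CNOT1, the scaffold of the deadenylase complex, going from 98.7 ± 20.4 to 192 ± 62.8 CPM.

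Several lists gave little. Of 30 tested MYC targets of ribosome biogenesis 4 fell and none rose (2 and none with the GC trend removed), of 29 of lysosome and autophagy 2 fell and 2 rose, of 23 YAP-TEAD targets 1 fell and 4 rose, and of 23 proteases and integrins 2 fell and 4 rose. With the GC trend removed the lysosome list held 1 fall and 1 rise and the protease list no fall and 3 rises. Without both tumors in doubt the last 3 of these lists held no call in either direction. Among 26 tested gut and mucin genes 3 rose and none fell (2 and none with the GC trend removed), and their mean ran from 5.73 to 6.27 log2 CPM at 2 h and from 5.55 to 6.28 at 4 h.

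Fibroblast, endothelial and myeloid markers were highest in 1 tumor, 4 h tumor 2. COL1A1 stood at 1920, 750, 433 and 914 CPM at 2 h and at 677, 16200, 324 and 1130 CPM at 4 h, where it did not pass (adjusted p = 0.102). Of the 15 fibroblast and pericyte markers all had a log2 fold change above 0, with a median of 1.40 that was 0.10 without 4 h tumor 2. In edgeR DCN alone was called (DESeq2 called 7 of the 15 higher, limma-voom 1, and 9 were higher at an unadjusted edgeR p under 0.05). DCN stood at 0.169 to 1.12 CPM at 2 h and 1.49 to 3.92 CPM at 4 h (2.09 ± 0.61), and lost its call without 4 h tumor 2, without 2 h tumor 2, 3 or 4 and without 4 h tumor 4. Endothelial and myeloid markers averaged 3.17 and 4.59 log2 CPM in 4 h tumor 2, against at most 1.98 and 3.74 in the other 7 tumors, and none of their 8 and 7 tested genes was called by edgeR or limma-voom, with 0 and 1 by DESeq2 and 0 and 3 at an unadjusted edgeR p under 0.05. The 9 tested adipocyte, muscle and red cell markers averaged 5.4 log2 CPM in 2 h tumor 1 against 0.32 to 0.93 in the other 2 h tumors and 2.11 to 4.69 at 4 h. The tumors were carried by mice, and whether mouse reads were taken out is not given. Levels of these markers may therefore include mouse reads and are not to be read as those of human cells alone. Beyond leaving tumors out, the part of these cells in the calls was not tested. All 13 mitochondrially encoded mRNAs had a log2 fold change below 0 (median -0.61), but none passed in edgeR or limma-voom, with 3 in DESeq2 and 7 at an unadjusted edgeR p under 0.05. Their share of counts was 9.93, 14.9, 15.8 and 13.3% at 2 h and 13.2, 6.22, 9.56 and 9.09% at 4 h, so the groups overlapped.

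**Figure D5:**
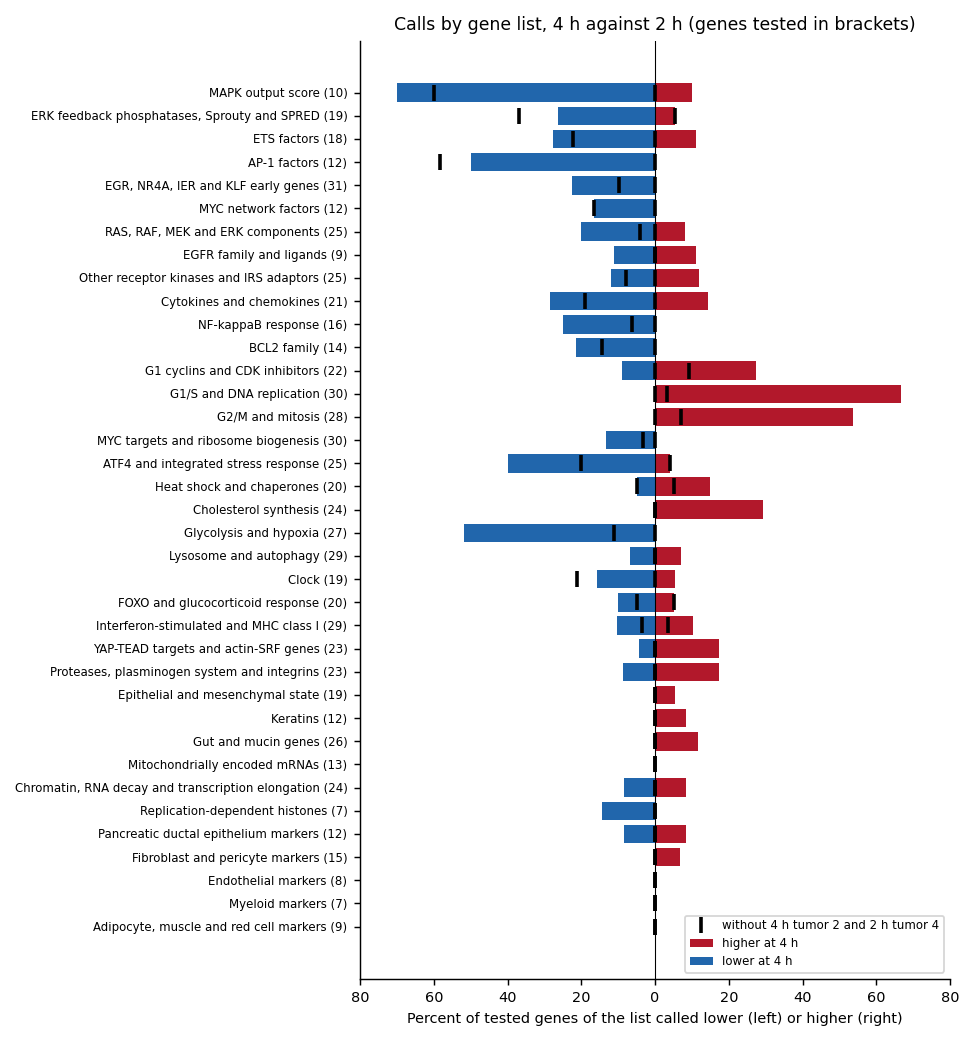
For each gene list, the percent of its tested genes (number in brackets) called lower (blue, left) or higher (red, right) at 4 h, with black ticks for the percent when 4 h tumor 2 and 2 h tumor 4 are both left out. Over all genes 9% were lower and 6.89% higher. MAPK output, AP-1 and glycolysis lists extend to the left and the replication and mitosis lists to the right, and the ticks of the last 3 lie far inside their bars.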

How the data were processed

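PolyA RNA was sequenced from 24 AsPC-1 xenograft tumors as paired reads of 150 bases, per the labels' protocols. The authors deposited estimated counts per gene, and TPM (transcript abundance scaled for gene length and depth). The submitters' processing notes name bcl2fastq 2.17, FastQC 0.12.1, Salmon 0.14.1 and GRCh38.p13. Which annotation release was used, whether strand was counted and whether mouse reads were taken out is not given in the sources used here, so antisense and overlapping genes, and human and mouse copies of like sequence, may share counts. Groups were read from titles, because the time tag of treated tumors speaks of a vehicle dose.

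Of 60230 genes, 57972 took type and coordinates from GENCODE 29 by gene ID, and those without a match held 0.096% of counts. Symbols are current names matched by gene ID, or the GENCODE 29 name where none was found. Values were rounded to whole counts (59.6% of values above 0 were whole to within 0.0015). After filterByExpr, 18242 genes with 99.9% of counts entered edgeR 4.0.16 (R 4.3.3), with TMM scaling, all 24 tumors in 1 fit and its robust quasi-likelihood test. The contrast was 4 h minus 2 h after IK-595, with Benjamini-Hochberg adjustment over all genes tested and a threshold of 0.05. All p-values printed are from this fit or its repeats. Levels are CPM, with a prior count of 2 where log2. The median standard error of a log2 fold change was 0.23. No columns were identical among the 8 tumors. Transcript GC was known for 98.7% of tested genes, and each tumor's trend over it was removed with a lowess curve in an alternative added after seeing the data, as was one for length. Other settings tried were DESeq2 1.42.0, limma-voom and limma trend on log2(TPM + 1) (limma 3.58.1), other scalings and filters, a stricter threshold, a replicate block, removal of mitochondrially encoded genes and leaving out tumors. The scripts had been tested on simulated counts.

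The 39 gene lists and the members were chosen with earlier results of these data known, so lists have counts and medians only. Genes were named by rule: the 15 largest rises and 15 largest falls among protein-coding genes with an adjusted p under 0.05, a mean of at least 3 log2 CPM, no overlap between groups and a call that held without 4 h tumor 2 and without 2 h tumor 4. The rule adds, from each list, up to 4 called genes with the smallest adjusted p and up to 2 of the most abundant that did not pass, and the 10 MAPK output genes. Fewer were printed. Promoters are from RefSeq GRCh38.p14, matched by symbol for 12135 of 18228 tested genes with a distinct symbol.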

Additional observations from a re-analysis of the deposited data

Results flagged for a closer look

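Among 202 checks of single groups of 4 tumors, 15 values lay apart from the other 3 by more than Dixon's 95% critical value, which chance passes in about 1 group in 20. In 4 h tumor 2 these were DUSP6 at 3.3 log2 CPM (the others at 1.57 to 1.82), DUSP4 at 3.03 (1.69 to 1.89), SHB at 3.04 (2.15 to 2.23), DUSP1 at 5.32 (4.57 to 4.65) and BRIP1 at 3.68 (4.14 to 4.22). In 4 h tumor 4 they were MNT at 4.41 (4.62 to 4.65), KIF11 at 5.88 (5.42 to 5.48) and SHH at 2.72 (all others at 3.39), and in 4 h tumor 3 CCND1 at 5.53 (6.08 to 6.11). In 2 h tumor 1 they were HSPA8 at 9.6 (8.43 to 8.5), TANC2 at 4.03 (2.83 to 3) and the adipocyte, muscle and red cell list mean at 5.4 (0.319 to 0.933). In 2 h tumor 4 they were EGFR at 8.18 (8.52 to 8.57) and the MAPK output mean at 4.4 (3.98 to 4.05), and in 2 h tumor 2 RFC4 at 3.64 (3.34 to 3.38). The 4 ERK-linked genes in 4 h tumor 2 (DUSP6, DUSP4, SHB and DUSP1) were all on the side of the 2 h tumors or above them, and why was not tested.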

How the results depend on the processing

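The number of genes higher at 4 h (1257) was 332 to 2265 and the number lower (1642) 605 to 1975 when 1 tumor was left out. Without both 4 h tumor 2 and 2 h tumor 4 they were 232 and 421, and at an adjusted p under 0.01 they were 230 and 500. DESeq2 gave 1994 higher. Lower genes numbered 800 with no low-count filter, 1083 in a fit of the 8 tumors only, 620 with limma on log2(TPM + 1) and 1033 with the GC trend removed. The other settings moved each count by less than 1.5 times. With a replicate block they were 960 and 1392, but the 4 pairs of equal number had deviations correlated at -0.333, -0.27, 0.32 and -0.227, so the numbers do not pair tumors. The difference in the MAPK output mean (-1.15) moved by less than its pooled SD of 0.33 with a prior count of 0.5, with RLE scaling and on leaving out each tumor (-1.36 to -1.04). Of 75 passing genes examined one by one, 47 kept their call under all alternatives run on them, 67 on leaving out each tumor, 73 with the GC trend removed and 74 with the block, and none changed direction. Of 1650 repeats on these genes, 80 lost the call. The naming rule takes genes that passed without 4 h tumor 2 and without 2 h tumor 4, or with a small adjusted p. These shares therefore do not stand for all calls. Of all 2899 calls, 286 higher and 523 lower held on leaving out each tumor. With 4 tumors a group and a median standard error of 0.23 on the log2 scale, changes much smaller than 2-fold are often not detectable.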

Other observations

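Noncoding gene classes had medians below 0, with tumors of the 2 times overlapping. Among tested long intergenic RNAs (839) 9 were higher and 77 lower at 4 h, with a median log2 fold change of -0.40, and among tested antisense genes (1135) 10 were higher and 89 lower, with a median of -0.35. Lower calls made up 9.18% and 7.84% of these classes, against 9% over all genes, and higher calls 1.07% and 0.881%, against 6.89%. Protein-coding genes had a median of 0.05. With the GC trend removed the medians of the noncoding classes were -0.39 and -0.32, and without 4 h tumor 2 they were -0.28 and -0.25. Their median deviation from the mean over tumors was lowest in 4 h tumor 2, at -0.46 and -0.44 log2 CPM. It was 0.18 and 0.19 in 4 h tumor 1, 0.11 and 0.08 in 4 h tumor 3 and -0.21 and -0.18 in 4 h tumor 4. In the 2 h tumors it was 0.09 to 0.36, lowest in 2 h tumor 1 (0.12 and 0.09). Of the 4 h tumors only tumor 1 lay within the 2 h range, and tumor 3 lay just below it.

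Processed pseudogenes (652 tested) had a median log2 fold change of 0.62, but -0.26 without 4 h tumor 2. The median deviation of these pseudogenes was 1.97 log2 CPM in that tumor, with -0.68 to 0.15 in its group otherwise, and 0.81 in 2 h tumor 1 against -0.40 to -0.06 in the other 2 h tumors. These 2 tumors also had the highest fibroblast and pericyte marker means of their groups, 7.8 and 5.79 log2 CPM.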
